A study of Mus musculus with 2 samples.

Results

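The immediate early and heat shock genes described here are 10 of the 19550 genes counted in single cells of the mouse foregut, and they were chosen by name: *Fos*, *Fosb*, *Jun*, *Junb*, *Egr1*, *Atf3* and *Ier2* as immediate early genes, and *Hspa1a*, *Hspa1b* and *Dnajb1* as heat shock genes. Together they held 603511 of 107865155 UMIs (unique molecular identifiers, 1 per captured RNA molecule), or 0.56%. Cells came from the esophagus, the gastroesophageal squamocolumnar junction (GE-SCJ) and the stomach of wild-type C57BL/6 mice at embryonic day 15 (E15), E19, as pups at day 2 and as adults at 8 weeks. Mice of a region and stage were pooled under 1 multiplexing tag, so each of the 11 region and stage pools is a single sample without a label of the mouse, and adult stomach cells are not analysed here. The labels give no treatment or altered gene in any group. The cells were read as 1 multiplexed 10x 3′ library of 7808 cells with class labels from the authors' own clustering. The question put to the 10 genes is how far their levels differ between pools and classes. The reason is that tissue was minced and digested with collagenase for 45 min at 37 °C in every region and stage before cells were captured. The methods of the study add a second, shorter enzyme step in TrypLE Express at 37 °C.

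Immediate early genes code for transcription factors and regulators that cells switch on within minutes of a stimulus such as serum, stretch, injury or digestion of the tissue, without new protein synthesis. FOS and JUN family proteins pair to form the AP-1 factor. Heat shock genes code for chaperones that are switched on by heat shock factor when proteins unfold. Both groups are widely used as signs of what a cell went through during dissociation, and both also act in living epithelium and muscle, so a level alone does not tell the occasions apart.

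A level is a CPM (counts per 1000000 UMIs), formed from the pooled UMIs of a group's cells, with exact 95% Poisson intervals in parentheses. Because a 3′ tag is counted once per molecule, gene length does not enter. Log2 ratios compare CPM with 1 UMI added to each sum, and carry exact intervals conditional on both counts. All intervals, including those of shares, cover counting error only. With 1 sample a group there is no replicate spread and no test. A gene is called higher or lower where the CPM differs at least 2-fold and both groups together hold at least 100 UMIs, and the share of all such genes that pass is given beside the first count as the background. Class by pool values are given for the 55 groups of at least 20 cells.

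The genes lie at the following places on GRCm38 (GENCODE M21). *Fos* is on chromosome 12 from 85473890 to 85477273 (plus strand) and *Fosb* on chromosome 7 from 19302696 to 19310051 (minus). *Jun*, on chromosome 4 from 95049034 to 95052222 (minus), has 1 exon and is overlapped by the antisense gene *Junos*, and *Junb*, on chromosome 8 from 84974484 to 84978718 (minus), by *Prdx2* on the other strand. *Egr1* is on chromosome 18 from 34859823 to 34864984 (plus), *Atf3* on chromosome 1 from 191170296 to 191218039 (minus), and *Ier2* on chromosome 8 from 84661331 to 84662852 (minus). *Dnajb1* is on chromosome 8 from 83608193 to 83612653 (plus). The HSP70 genes *Hspa1a*, on chromosome 17 from 34969190 to 34972156, and *Hspa1b*, from 34956436 to 34959238, are near-identical 1-exon copies on the minus strand with 9951 bases between them.

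Before the values, several features of the cells have to be stated. Median UMIs per cell ran from 4956.5 in the pup esophagus to 15676 in the pup stomach, and the median mitochondrial share from 1.82% to 4.71%. In principal components computed without stress genes, 254 cells had mostly neighbours from the other side of birth, among them 48 of 340 pup esophagus, 48 of 615 pup GE-SCJ, 46 of 618 pup stomach, 16 of 335 adult esophagus and 25 of 143 adult GE-SCJ cells. Results on pups and adults are therefore also given without those cells where the value moved by more than 1.5 times. Of 24 class markers, 23 were highest in the class they define, the exception being *Msln* in the second squamous label. Doublets were not called here in addition to the filter of the authors, and with a single library 0 barcodes were shared between libraries.

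Whether the counts can tell *Hspa1a* from *Hspa1b* matters for every value that follows. Of the 31-base words in the coding sequence of *Hspa1a*, 88.4% also occur in *Hspa1b*, but none of the words in the last 300 bases of either transcript occurs in the other. Reads from the 3′ end can therefore be placed, and the copies are given both singly and as a sum. Their promoters are shown first, because the HSP70 genes differed most between pools, followed by those of *Jun*, *Fos* and *Dnajb1* for comparison. Each sequence is the RefSeq window of 250 bases before the annotated start on GRCm38.p6, 5′ to 3′ on the gene's strand: chr17:34972157-34972406 for *Hspa1a*, chr17:34959239-34959488 for *Hspa1b*, chr4:95052223-95052472 for *Jun*, chr12:85473640-85473889 for *Fos* and chr8:83607925-83608174 for *Dnajb1*. Capitals mark matches to GAANNTTC, an inverted pair of heat shock element units, to TGACG, the core of a cyclic AMP response element, to TATAAA and to CCAAT, each on either strand.
Hspa1a: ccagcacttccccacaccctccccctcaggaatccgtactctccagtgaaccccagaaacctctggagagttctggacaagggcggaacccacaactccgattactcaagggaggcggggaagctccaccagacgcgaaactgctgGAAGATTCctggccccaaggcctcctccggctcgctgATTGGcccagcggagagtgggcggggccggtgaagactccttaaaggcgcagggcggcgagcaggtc
Hspa1b: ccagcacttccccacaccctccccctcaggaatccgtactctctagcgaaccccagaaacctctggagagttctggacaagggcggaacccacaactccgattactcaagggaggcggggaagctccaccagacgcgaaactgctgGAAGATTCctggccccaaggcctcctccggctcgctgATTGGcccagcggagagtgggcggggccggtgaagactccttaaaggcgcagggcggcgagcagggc
Jun: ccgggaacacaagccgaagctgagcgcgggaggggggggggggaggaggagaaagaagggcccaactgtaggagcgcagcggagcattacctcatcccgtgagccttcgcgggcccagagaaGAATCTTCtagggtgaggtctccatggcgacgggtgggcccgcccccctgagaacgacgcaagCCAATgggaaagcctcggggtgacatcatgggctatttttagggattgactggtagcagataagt
Fos: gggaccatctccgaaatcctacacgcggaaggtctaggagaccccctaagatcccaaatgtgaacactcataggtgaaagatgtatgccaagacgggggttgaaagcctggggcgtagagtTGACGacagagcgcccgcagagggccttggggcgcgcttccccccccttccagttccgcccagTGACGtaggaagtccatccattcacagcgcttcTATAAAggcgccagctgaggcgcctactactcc
Dnajb1: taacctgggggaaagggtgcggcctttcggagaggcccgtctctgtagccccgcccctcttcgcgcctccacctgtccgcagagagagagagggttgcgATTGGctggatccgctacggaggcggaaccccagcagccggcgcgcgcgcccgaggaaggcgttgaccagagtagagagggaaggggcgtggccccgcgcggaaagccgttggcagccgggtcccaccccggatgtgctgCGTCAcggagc

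The *Hspa1a* and *Hspa1b* windows are identical at 98.8% of bases, and differ at 3 positions counted from the first base shown, C44T, T47C and T249G with the *Hspa1a* base first. Both hold GAAGATTC at -104 to -97 from the start and a CCAAT match at -67 to -63. *Jun* holds GAATCTTC at -128 to -121, and no such match lies in the window of *Dnajb1*, which holds CCAAT at -151 to -147 and TGACG at -11 to -7. *Fos* holds TGACG at -129 to -125 and -66 to -62, and TATAAA at -33 to -28. Of 32850 RefSeq windows of this length, 6.69% hold GAANNTTC, 17.8% TGACG, 12.4% TATAAA and 33.9% CCAAT. RefSeq windows were found for 8 of the 10 genes. TTCNNGAA (7.17% of windows), TGACGTCA (1.55%), TGACTCA (4.46%) and the CArG box (1.47%) occur in none of the 8. A match describes the letters only.

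Across the pools, each with its own mix of classes, the pup esophagus had the highest CPM of 8 of the 10 genes. For *Fos*, the partner of JUN in AP-1, the esophagus held 1033 CPM at E15, 734 at E19, 2609 (2543 to 2676) in the pup and 771 in the adult, the GE-SCJ 1377, 1897, 1456 and 1009, and the stomach 1085, 1262 and 1668 up to the pup. *Jun* was at 721, 514, 1777 and 919 CPM in the esophagus, against 903, 1200.2, 904 and 943 in the GE-SCJ and 724, 882 and 959 in the stomach. Both genes were thus lowest in the E19 esophagus and highest 1 stage later in the same organ.

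*Junb*, another AP-1 subunit, was at 452, 386, 1167 and 378 CPM in the esophagus, 587, 621, 563 and 324 in the GE-SCJ, and 400.4, 436 and 646 in the stomach. *Fosb*, the FOS relative, was at 309.9, 159, 579.9 and 240.2 CPM in the esophagus, 468, 674, 357 and 257 in the GE-SCJ, and 409, 423 and 347 in the stomach. *Fosb* was the 1 immediate early gene whose highest pool was the E19 GE-SCJ and not the pup esophagus.

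*Egr1*, a zinc finger factor induced by growth factors, was at 1473, 1049.5, 1843 and 476 CPM in the esophagus, 1813, 1671, 874 and 694 in the GE-SCJ, and 1304, 1143 and 1029.6 in the stomach. The E15 GE-SCJ and the pup esophagus were within a few percent of each other for this gene, with intervals of 1785 to 1842 and 1788 to 1899.7 CPM that overlap. *Ier2*, a small nuclear regulator, was at 401, 269, 593 and 182 CPM in the esophagus, 509, 488, 438 and 252 in the GE-SCJ, and 359, 348 and 466 in the stomach. The adult pools were the lowest for both.

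*Atf3*, a stress-induced factor of the ATF/CREB family, was at 141, 101, 484 and 331 CPM in the esophagus, 151, 444, 269.8 and 315 in the GE-SCJ, and 115, 231 and 419 in the stomach. Unlike *Egr1* and *Ier2*, it was at 315 and 331 CPM in the adult pools against 101 to 231 CPM in 5 of the 6 prenatal ones. The exception among the prenatal pools was the E19 GE-SCJ.

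The HSP70 genes spread the most. *Hspa1a* was at 58.1, 93.8, 913 (874 to 953) and 672 CPM in the esophagus, 71.1, 88.1, 254 and 542 in the GE-SCJ, and 57.6, 118 and 89.1 in the stomach. *Hspa1b* was at 64.2, 100.2, 954 and 919 CPM in the esophagus, 71.5, 86.1, 305 and 774 in the GE-SCJ, and 50.9, 124 and 107 in the stomach. The 6 prenatal pools and the pup stomach lay at or below 124 CPM for either copy, and the pup esophagus and both adult pools at or above 542 CPM. For *Hspa1a* the lead of the pup over the adult esophagus depends on the measure: as a mean of the CPM of each cell, the log2 ratio of adult over pup was 0.027. *Hspa1b* was close in the pup and adult esophagus, at 954 and 919 CPM, and no order between them is read.

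*Dnajb1*, the HSP40 partner that hands clients to HSP70, was at 118, 110.1, 203 and 338 CPM in the esophagus, 131, 158, 114 and 422 in the GE-SCJ, and 88.7, 116 and 79.1 in the stomach. Its highest pools were thus the adult ones, and the pup esophagus came behind them. From the lowest to the highest pool the fold was 3.25 to 4.78 for the 7 immediate early genes, 5.34 for *Dnajb1*, 15.9 for *Hspa1a* and 18.7 for *Hspa1b*.

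**Figure D1:**
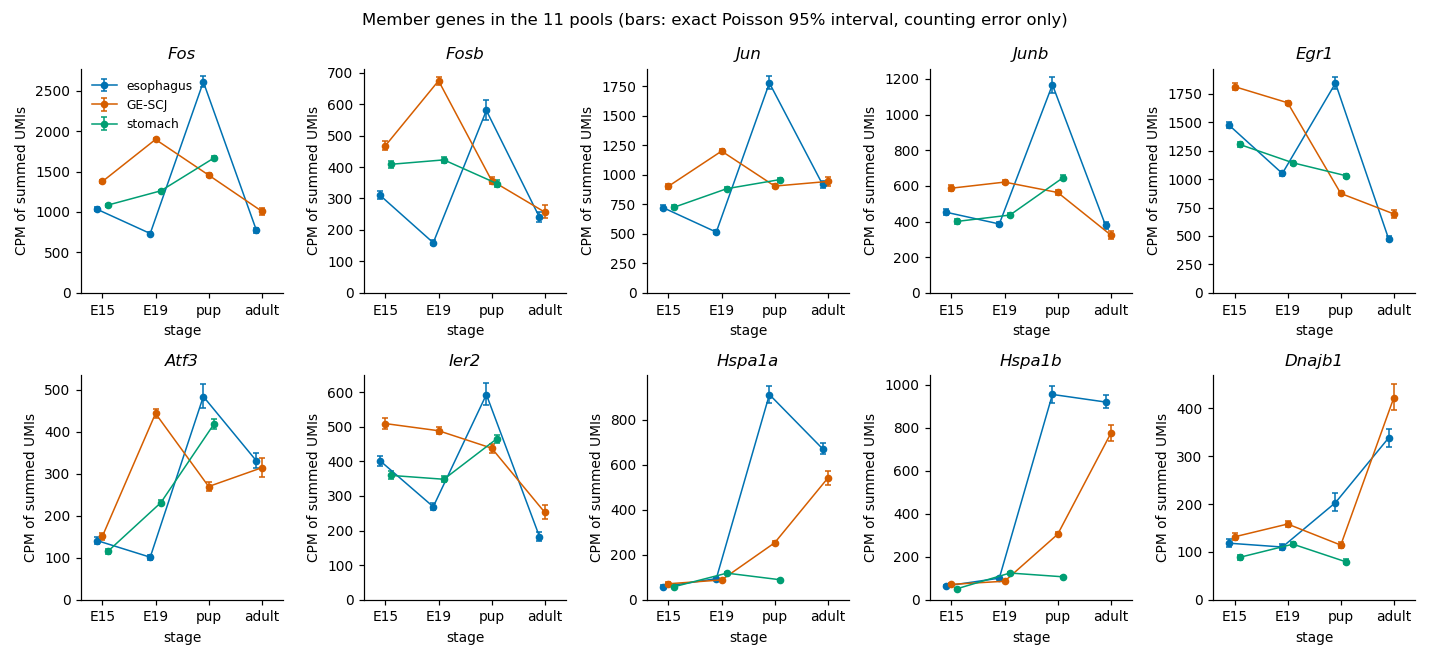
CPM on a linear axis of each of the 10 genes in the 11 region and stage pools, with bars for exact 95% Poisson intervals (1 pooled sample a point, no replicates). The pup esophagus is the highest pool for 8 genes by this measure. For *Hspa1b* it lies close to the adult esophagus, and for *Hspa1a* the order of the pup and adult esophagus turns as a mean over cells. *Fosb* peaks in the E19 GE-SCJ and *Dnajb1* in the adult GE-SCJ.

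The sums of the 2 groups put the pools in different orders. The 7 immediate early genes summed to 4532, 3213, 9054 and 3297 CPM in the esophagus from E15 to the adult, 5808, 6996, 4861 and 3794 in the GE-SCJ, and 4397, 4726 and 5534 in the stomach. The 3 heat shock genes summed to 240.4, 304, 2070.2 and 1929 CPM in the esophagus, 274, 332, 672 and 1738 in the GE-SCJ, and 197, 359 and 275 in the stomach. The adult esophagus had an immediate early sum near the lowest, that of the E19 esophagus, and a heat shock sum near the highest, that of the pup esophagus.

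Over all classes of the esophagus, pup over E19, 8 of the 10 genes were at least 2-fold higher, against 8.38% of the 10136 genes with enough UMIs. Their log2 ratios ran from 1.14 (1.05 to 1.24) for *Ier2* to 3.28 (3.17 to 3.39) for *Hspa1a*, while *Egr1* was at 0.81 and *Dnajb1* at 0.88. The median log2 ratio of all genes was -0.19. For the pup esophagus over the E15 stomach, 7 of the 10 genes were at least 2-fold higher against 9.15% of genes. Both HSP70 genes had log2 ratios above 3. These pools were picked as the highest and lowest of the heat shock sum, and pup and E19 esophagus are the extremes of the immediate early sum. A high count of the summed genes was thus partly fixed by the choice of pools, and no enrichment is read from either count. The pup esophagus also had the lowest median depth of the pools and 40071 CPM of the nuclear RNA *Malat1*, and the part of depth and RNA quality in its levels was not tested.

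The order of the pools changed once the mix of classes was fixed. With equal weight on stroma and smooth muscle, a setting chosen after seeing the data, the immediate early sum was 9342 CPM in the pup esophagus. It was 12572 CPM in the pup GE-SCJ and 12122 CPM in the pup stomach, so the pup esophagus was the lowest of the 3 pups. The 6 prenatal pools were at 2136 to 6484 CPM. This order of the pups rests on smooth muscle, with 22 cells in the pup esophagus, of which 9 had neighbours from the other side of birth. In stroma alone the pup esophagus was the highest of the 3 pups. The heat shock sum was 1879 CPM in the pup esophagus, 1736 CPM in the pup GE-SCJ and 948 CPM in the pup stomach, against 153 to 300.2 CPM before birth. The pup stomach therefore lay with the prenatal pools for heat shock genes with its own mix of classes, but above them with this fixed mix. Columnar cells do not enter the fixed mix. In the stomach their heat shock sum was 180 CPM in the pup, against 263 CPM at E19 and 199 CPM at E15.

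The classes differed in both sums. Over all pools, immune cells (354 cells) had the highest immediate early sum, 9400 CPM, ahead of neural (8401), stromal (5570), smooth muscle (5010), columnar (4723), second stromal (4463), squamous (3580) and endothelial cells (2548). The 40 cells of the second squamous label were lowest, at 1773 CPM. The heat shock sum was 1519 CPM in immune and 1395 CPM in squamous cells, and 216 to 427 CPM in the other 7 classes. Over these pooled totals, squamous cells were next to immune cells for heat shock genes. Only endothelial cells and the second squamous label were below squamous cells for immediate early genes. The totals mix stages unequally: of the 690 squamous cells, 232 came from the adult esophagus and 86 from the adult GE-SCJ. Among 3 classes of the adult esophagus, the heat shock sum was highest in smooth muscle, at 3437 CPM, and lowest in stroma, at 1182 CPM. The part of stage in the order of the classes was not tested.

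The stroma, the fibroblast-type label, is the class with the most cells. For E19 over E15, 0 of 10 genes were at least 2-fold higher in the esophagus (background 1.85%) and 1, *Fosb* with a log2 ratio of -1.06, was lower (1.31%), while 0 were higher in the GE-SCJ (1.61%) and 1, *Hspa1b* with a log2 ratio of 1.16, in the stomach (1.91%). Between regions at E19, 4 of 10 were at least 2-fold lower in the esophagus than in the GE-SCJ (4.15%), all of them immediate early genes. The immediate early sum of stroma was 4340.2 CPM at E15 and 3137 CPM at E19 in the esophagus, 7452 and 7181 CPM in the GE-SCJ, and 5395 and 4957 CPM in the stomach. In the pup it was 13475 CPM (13189.6 to 13766) in the esophagus, 12409 CPM (12064 to 12762) in the GE-SCJ and 12100.3 CPM (11779.7 to 12427) in the stomach. All 3 pup values exceeded all 6 prenatal ones, and the pups of the 3 regions lay closer to each other than the prenatal pools did.

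For pup over E19 stroma, 9 of 10 genes were at least 2-fold higher in the esophagus (background 8.25%), 6 in the GE-SCJ (6.81%) and 7 in the stomach (6.76%). *Fos* was at 3841, 4057 and 3601 CPM in the 3 pups, with log2 ratios over E19 of 2.44 (2.37 to 2.51), 1.14 (1.07 to 1.22) and 1.56 (1.49 to 1.64). *Atf3* was at 39.8 to 92.7 CPM in the 6 prenatal pools and at 634, 483 and 394 CPM in the pups, the largest difference of the immediate early genes with log2 ratios of 3.99, 2.39 and 2.73. *Fosb* did not share the direction, with 600.4 CPM against 128 CPM in the esophagus but 472 against 702 CPM in the GE-SCJ and 338 against 458 CPM in the stomach.

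In the same stroma, *Hspa1a* and *Hspa1b* together were at 84.6 to 201 CPM before birth and at 2529 CPM (2406 to 2657), 1029 CPM (931 to 1134) and 661 CPM (587 to 741) in pup esophagus, GE-SCJ and stomach. Unlike the immediate early sum, this sum differed between the 3 pups, and the log2 ratio of pup esophagus over pup stomach was 1.93 (1.76 to 2.12), against 0.16 (0.11 to 0.20) for the immediate early sum. *Dnajb1* went the other way or stayed within its interval, at 92.5 to 174 CPM before birth and at 78.0, 76.2 and 69.4 CPM in the pups, with log2 ratios over E19 of -0.36 (-0.83 to 0.04), -1.15 (-1.77 to -0.67) and -0.73 (-1.34 to -0.25). In stroma of all 3 pups the HSP70 genes were thus higher than at E19, while *Dnajb1* was detected but not higher.

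Other values moved with the pup stroma. Its median UMIs per cell were 3859, 4242.5 and 5072.5 against 9025 to 10573 before birth, and *Malat1* was at 22967, 23005 and 19862.5 CPM against 10321 to 13857. The housekeeping gene *Ppia* was at 1274 to 1498 CPM against 2304 to 2910, and cold-inducible *Cirbp* at 124 to 213 CPM against 51.6 to 75.4. The median log2 ratio of all genes lay within 0.05 of 0 in the 3 stromal comparisons. The part of depth and of cell state in the pup levels was not tested. Without the cells with neighbours from the other side of birth, the counts were 9, 6 and 8 genes, and the immediate early sums 14066, 12895 and 12757 CPM.

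In the adult esophagus the 31 stromal cells had an immediate early sum of 1789 CPM (1588 to 2007), the lowest of the 10 stromal groups. For adult over pup stroma of the esophagus, 8 of the 9 genes with enough UMIs were at least 2-fold lower, against 13% of 1268 genes. *Fos* was at 452 CPM and *Atf3* at 24.8 CPM, the latter on few UMIs, since the 31 cells hold 161569 UMIs over all genes. *Hspa1a*, with a log2 ratio of -1.57, was among the 8. *Hspa1a* and *Hspa1b* together were at 1157 CPM (997 to 1336), below the 2529 CPM of the pup and above the 84.6 to 201 CPM of the 6 prenatal stromal groups.

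**Figure D2:**
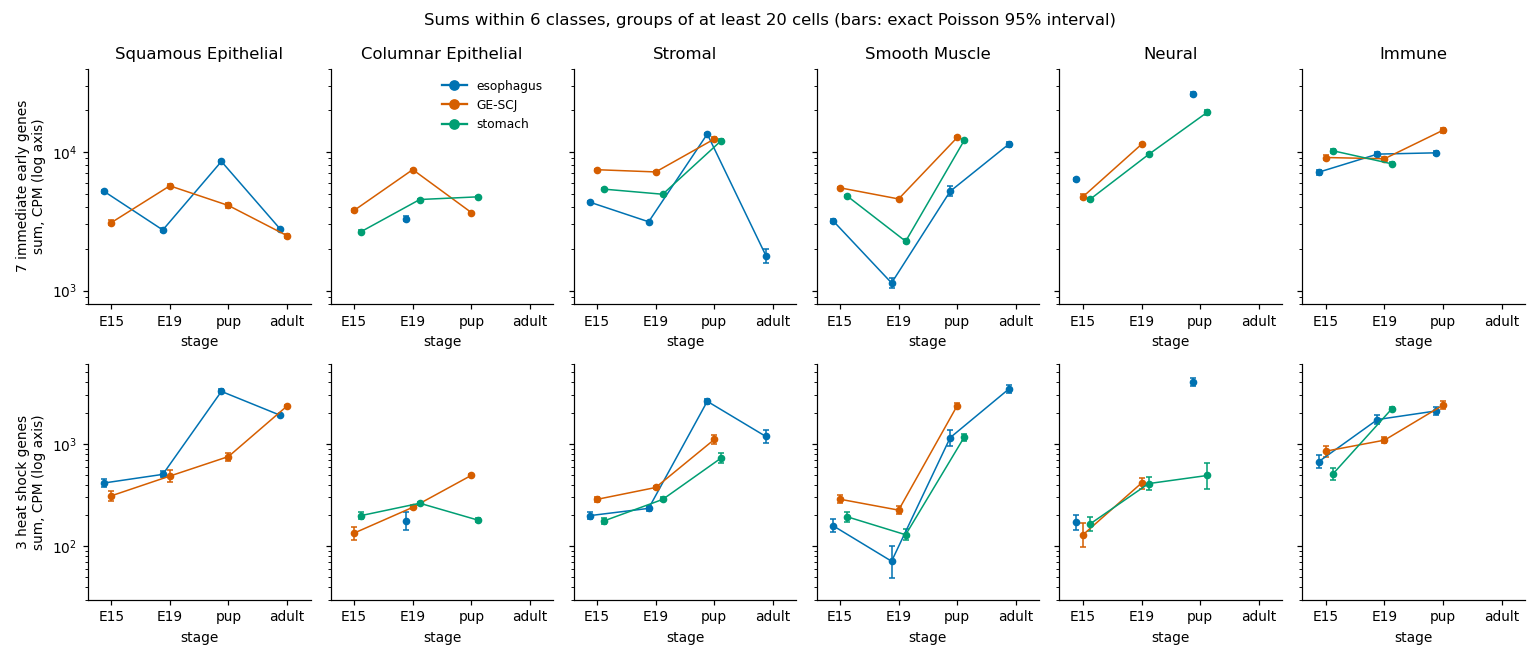
Summed CPM on log axes of the 7 immediate early genes (upper row) and the 3 heat shock genes (lower row) by stage, region and class, for groups of at least 20 cells with exact 95% Poisson intervals. Stroma and smooth muscle of the pups lie above their E15 and E19 levels, while the heat shock sum of columnar cells in the pup stomach lies below that at E19.

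Smooth muscle cells showed the same difference across birth and a wider spread before it. The immediate early sum was 3194, 1135, 5208 and 11389 CPM in the esophagus from E15 to the adult, 5516, 4585 and 12735 CPM in the GE-SCJ, and 4819.9, 2269.7 and 12144 CPM in the stomach. For pup over E19, 7 of 10 genes were at least 2-fold higher in the GE-SCJ (background 9.43%) and 9 in the stomach (12%), where *Junb* had a log2 ratio of 3.09 (2.93 to 3.25) and *Hspa1a* of 4.15 (3.76 to 4.60). *Dnajb1* was again apart, with 112 against 88.1 CPM in the GE-SCJ and 96.7 against 55.9 CPM in the stomach. Median UMIs of pup smooth muscle were 4418 and 4586 in these regions against 11627 and 11411.5 at E19.

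At E19 the regions differed within smooth muscle. For esophagus over GE-SCJ, 9 of 10 genes were at least 2-fold lower (background 4.71%), with *Fos* at 279 against 1397 CPM, *Fosb* at 41.1 against 342 CPM and *Atf3* at 8.65 against 66.6 CPM, while *Jun* at 253 against 406 CPM did not reach 2-fold. The 8.65 CPM of *Atf3* rests on few UMIs, since the esophageal group holds 462460 UMIs over all genes. For GE-SCJ over stomach, 6 of 10 were at least 2-fold higher (1.51%), with *Fosb* at 342 against 96.3 CPM. The 42 smooth muscle cells of the E19 esophagus had the lowest immediate early sum of all 55 groups, 1135 CPM (1040.2 to 1237), and the part of tissue handling and of muscle type in that level was not tested.

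Adult esophageal smooth muscle (30 cells) was the opposite of adult stroma from the same pool. Its immediate early sum was 11389 CPM (10889 to 11906), its HSP70 sum 3046 CPM (2789.9 to 3318) and its *Dnajb1* level 391 CPM (303 to 496). For adult over pup, 7 of the 8 genes with enough UMIs were at least 2-fold higher against 12.3% of 399 genes, *Fos* being at 4154 against 1963 CPM and *Atf3* at 1009 against 113 CPM. Pup esophageal smooth muscle has 22 cells, of which 9 had neighbours from the other side of birth. Without those 9 its HSP70 sum was 1710 CPM in place of 1090.4 CPM, and *Dnajb1* 14.5 CPM (1 UMI) in place of 61.1 CPM.

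In squamous epithelium the HSP70 genes and the immediate early genes were both higher in the pup esophagus than before birth, and parted in the adults. In esophageal squamous cells the immediate early sum, from E15 to the adult, was 5193, 2737, 8549.5 (8311 to 8793) and 2790.2 CPM, and in those of the GE-SCJ 3091, 5700.3, 4112 and 2489.7 CPM. The sum of *Hspa1a* and *Hspa1b* was 219, 346, 2831 (2694 to 2972) and 1546 CPM (1503 to 1589.7) in the esophagus and 198, 251, 626 and 1757 CPM (1692 to 1824) in the GE-SCJ. Adult squamous cells of both regions therefore had immediate early sums near the lowest prenatal one, but HSP70 sums at least 4-fold above every prenatal squamous group.

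In squamous cells of the esophagus, 10 of 10 genes were at least 2-fold higher in the pup than at E19, against 4.81% of 3077 genes. *Fosb* had the largest ratio of the immediate early genes, 2.64 (2.42 to 2.86) on the log2 scale, from 152 to 948 CPM. For adult over pup, all 7 immediate early genes were at least 2-fold lower (background 9.52%) and none of the heat shock genes was, with log2 ratios of -0.88 for *Hspa1a*, -0.87 for *Hspa1b* and -0.25 (-0.44 to -0.04) for *Dnajb1*. In the GE-SCJ, adult over pup gave 3 genes at least 2-fold higher, and these were the 3 heat shock genes (12.9%): *Hspa1a* went from 246 to 731 CPM, *Hspa1b* from 379.9 to 1026 CPM and *Dnajb1* from 127 to 588 CPM. *Fosb*, from 212 to 91.7 CPM, and *Ier2*, from 374 to 145 CPM, were at least 2-fold lower, against 5.95% of all genes.

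The pups of the esophagus and GE-SCJ differed within squamous cells. For esophagus over GE-SCJ, 7 of 10 genes were at least 2-fold higher (7.14%), from *Egr1* at 1463 against 729 CPM to *Hspa1a* at 1191 against 246 CPM. *Jun*, at 2013 against 1114 CPM, did not reach 2-fold. In adults the regions were close, with log2 ratios within 0.40 of 0 for 8 genes, and the exceptions were *Fosb* (1.10) and *Dnajb1* (-0.70).

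The second squamous label of the pup esophagus, 29 cells from the same pool and digestion, had an immediate early sum of 1566 CPM (1446 to 1693) and an HSP70 sum of 82.1 CPM (56.5 to 115), against 8549.5 and 2831 CPM in the first label. *Junb* was the exception, at 619.8 CPM against 753 CPM. The name of this label is not borne out by its squamous markers: over all pools it had *Krt5* at 12.6 CPM, *Krt14* at 5.4 CPM and *Trp63* at 0 UMIs, against 1188, 548 and 212 CPM in the first label, and *Msln* at 881 CPM. Its pup esophagus cells had 153045 CPM of *Malat1*, more than any other group, *Ppia* at 164 against 1979 CPM and *Gapdh* at 77.2 against 415 CPM, with a median of 11550 UMIs against 8503.5. The part of these features in its low sums was not tested. No class is known to lack the 10 genes, so no background share of free RNA can be given for any of them.

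Position within the squamous layer was approximated by sorting cells on suprabasal (*Krt4*, *Krt13*) over basal (*Krt5*, *Krt14*, *Krt15*) keratin UMIs into 3 bins. In the adult esophagus the immediate early sum was 4471, 4136 and 1617 CPM from the basal to the suprabasal bin, and *Jun* was at 1543, 1389 and 410.4 CPM. *Fosb* was at 356, 249.7 and 115 CPM. The HSP70 sum was 2640, 2390 and 795 CPM and *Dnajb1* 561, 477 and 241 CPM, so both groups were lowest in the suprabasal bin, whose 77 cells had a median of 18810 UMIs against 7819 in the basal one.

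In the adult GE-SCJ the same bins held 2836, 3099 and 2111 CPM of the immediate early sum, and 2520, 1806 and 1441 CPM of HSP70. In the pup esophagus the order was not seen, with 8046, 8516 and 8919 CPM and 2885, 3506 and 2288 CPM. Bins of the pup hold 18 or 19 cells. In the E19 esophagus the middle bin was highest for both, at 3938 CPM and 643 CPM.

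**Figure D3:**
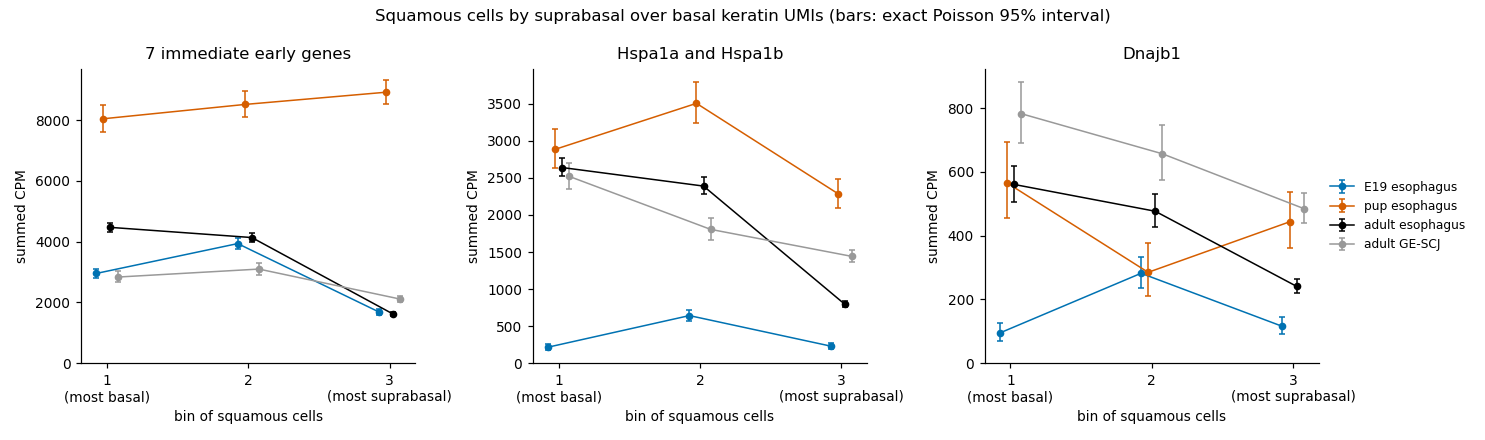
Summed CPM of the 7 immediate early genes, of *Hspa1a* and *Hspa1b*, and CPM of *Dnajb1* in 3 bins of squamous cells from basal to suprabasal keratin UMIs, in the E19, pup and adult esophagus and the adult GE-SCJ, with exact 95% Poisson intervals. In the adult esophagus the suprabasal bin is lowest in each panel, and in the pup esophagus the immediate early sum is highest there.

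Columnar cells of the pups had immediate early sums below or close to those at E19, unlike stroma and smooth muscle. Squamous cells of the GE-SCJ also had a lower immediate early sum in the pup than at E19. In columnar cells of the GE-SCJ the immediate early sum was 3791 CPM at E15 and 7464 CPM (7400.4 to 7527) at E19. It was 3657 CPM (3616 to 3699) in the pup. In columnar cells of the stomach it was 2665, 4542 and 4750.1 CPM from E15 to the pup. For E19 over E15 in the GE-SCJ, 5 of 10 genes were at least 2-fold higher (background 2.05%), led by *Atf3*, from 289 to 852 CPM. For pup over E19, 3 genes were at least 2-fold lower (9.44%), *Fosb* from 826 to 342 CPM, *Jun* from 1639 to 705 CPM and *Atf3* from 852 to 247 CPM, while *Hspa1a* went from 40.3 to 175 CPM and *Hspa1b* from 51.4 to 209.7 CPM. *Atf3* thus ran in opposite directions across birth in columnar cells and stroma of the same 2 pools, with log2 ratios of -1.78 (-1.86 to -1.71) and 2.39 (2.13 to 2.62).

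Among stomach columnar cells, 0 of 10 genes were at least 2-fold higher in the pup than at E19, against 5.48% of 9958 genes. *Junb* had the largest ratio, 0.64 (0.57 to 0.70), and the HSP70 sum was 156 CPM at E19 and 106 CPM (99.9 to 112) in the pup. Stroma and smooth muscle of that pup pool, digested with the columnar cells, held 661 and 1069 CPM. Columnar cells of the pup stomach had a median of 29810 UMIs and those of E19 24241, while in stroma the pup had the lower depth. The part of depth in these levels was not tested. The median log2 ratio of all genes for pup over E19 was -0.20 in squamous cells of the esophagus, -0.23 in columnar cells of the GE-SCJ and -0.25 in those of the stomach.

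Neural and immune cells had the highest immediate early sums over all pools. In neural cells the immediate early sum was 6364 CPM at E15 in the esophagus, 4753 CPM at E15 and 11365 CPM at E19 in the GE-SCJ, and 4553, 9599 and 19334 CPM from E15 to the pup in the stomach. The 24 neural cells of the pup esophagus had the highest sum of all 55 groups, 26226 CPM (25246 to 27234), with *Fos* at 9571 CPM, *Egr1* at 4664 CPM and an HSP70 sum of 3556 CPM. Pup stomach neural cells, 20 in number, had an HSP70 sum of 321 CPM (219 to 453), so the neural cells of the 2 pups were further apart in HSP70 than in immediate early genes. The pup esophagus neural cells also had *Malat1* at 36360.5 CPM, against 15433 CPM in the pup stomach and 8726 to 14409 CPM in the 5 prenatal neural groups, and a median of 3898 UMIs, and the part of RNA quality in their level was not tested. For E19 over E15 in the GE-SCJ, 5 of the 7 genes with enough UMIs were at least 2-fold higher in neural cells (8.14%).

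Immune cells had immediate early sums of 7156 to 14366 CPM over 8 pools, the highest being that of the pup GE-SCJ. They were high before birth too. At E15 they were the highest class in the esophagus (7156 CPM), GE-SCJ (9124 CPM) and stomach (10209 CPM). Their HSP70 sum was 511, 1421 and 1884 CPM in the esophagus from E15 to the pup, 591, 823 and 2102 CPM in the GE-SCJ, and 332 and 1899 CPM at E15 and E19 in the stomach. Immune cells of the E19 pools were thus at or above the HSP70 level of pup stroma from the GE-SCJ in 2 of 3 regions. In the GE-SCJ, *Jun*, *Hspa1a* and *Hspa1b*, 3 of 10, were at least 2-fold higher in the pup than at E19 (9.87%). In the esophagus 0 of 10 were (10.4%), with a median log2 ratio of -0.05 over the 10 genes. Without the 21 of 39 pup esophageal immune cells that had neighbours from the other side of birth, the immediate early sum was 14914 CPM in place of 9864 CPM and the HSP70 sum 3264 CPM in place of 1884 CPM.

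**Figure D4:**
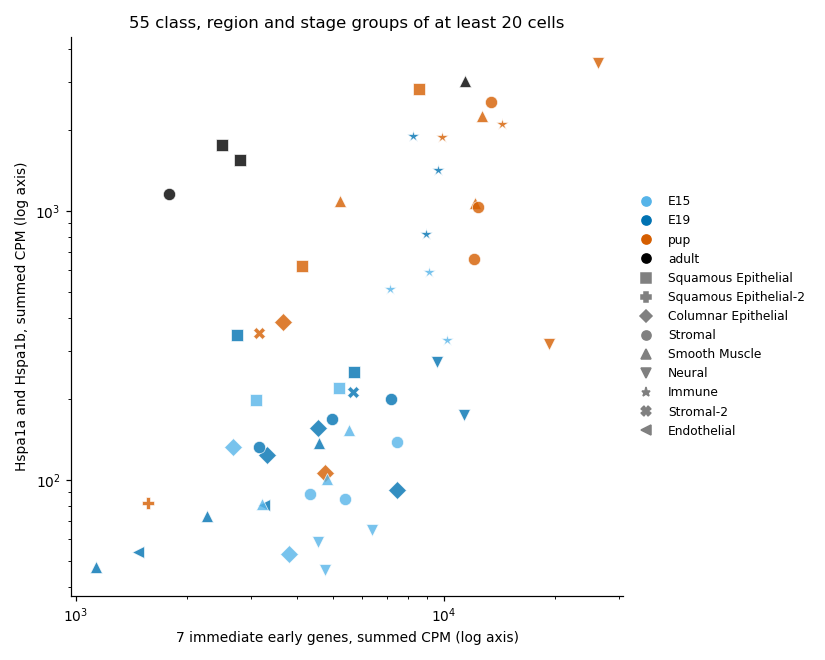
Summed CPM of the 7 immediate early genes against that of *Hspa1a* and *Hspa1b*, both on log axes, for the 55 class, region and stage groups of at least 20 cells, with color for stage and shape for class. Pup stroma lies high on both axes, adult squamous cells and adult stroma high on HSP70 with low immediate early sums, and pup stomach columnar cells low on HSP70.

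Because depth differs between groups, shares of cells with at least 1 UMI were compared after thinning each cell to 2000 UMIs, which leaves out 163 shallower cells. At this depth, *Fos* was found in 53.8% to 75.8% of cells over the pools, and at least 1 of the 7 immediate early genes in 85.7% to 94.6%. *Hspa1a* was found in 8.46%, 12.5%, 48.3% (42.6 to 53.9) and 60.6% (54.8 to 66.3) of cells of the esophagus from E15 to the adult, in 9.12%, 12.7%, 27.9% and 43.6% in the GE-SCJ, and in 8.96%, 13.1% and 17.7% in the stomach. At their own depth the *Hspa1a* shares ran from 29.5% in the E15 esophagus to 79.7% in the adult one. A cell without a UMI at this depth may still express the gene: at full depth, at least 1 UMI of either HSP70 copy was found in 47.7% to 57.0% of cells of the prenatal pools, and in 14.7% to 22.0% after thinning.

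For *Hspa1a*, the adult esophagus ranked above the pup esophagus by share but below it by CPM, so no order between them is read. In the pup stomach the thinned share of *Hspa1a* was above that at E19 while the CPM was below, at 89.1 against 118 CPM, and no order is read there either. UMIs were uneven between cells: the top 10% of cells, ranked by UMIs of that gene, held 41.2% to 76.8% of those of *Hspa1a* over the pools and 34.3% to 56.1% of those of *Fos*.

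**Figure D5:**
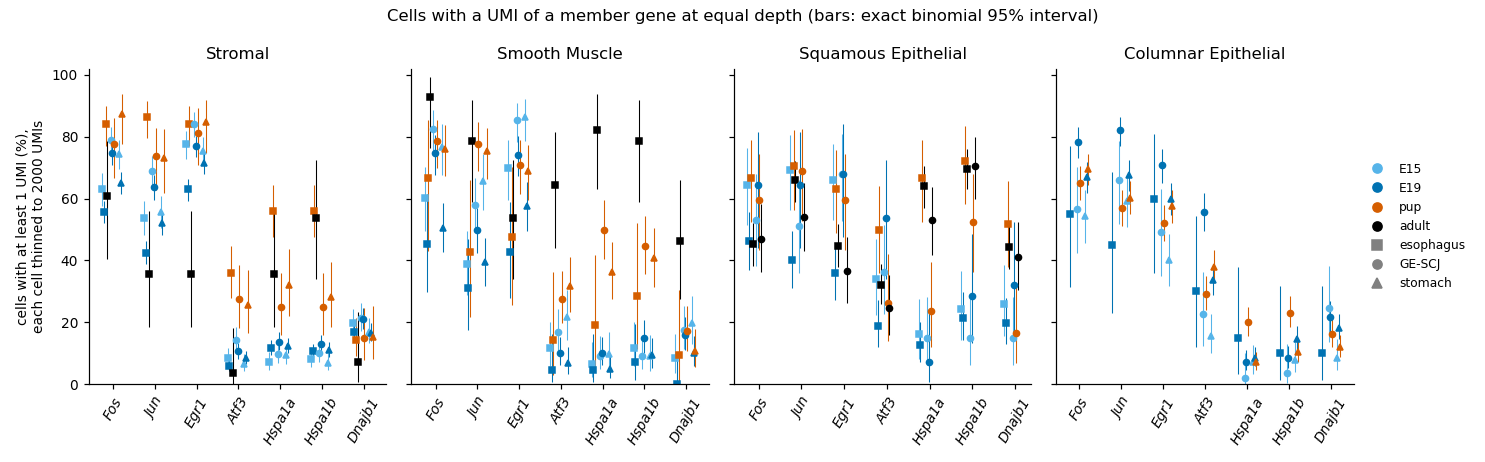
Percent of cells with at least 1 UMI of 7 of the genes after thinning every cell to 2000 UMIs, in 4 classes, with color for stage, shape for region and exact 95% Clopper-Pearson intervals. *Hspa1a* and *Hspa1b* shares of pups and adults lie above the prenatal ones in stroma, smooth muscle and squamous cells of the esophagus, and *Dnajb1* shares of stroma do not.

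The joint detection of *Fos* and HSP70 was read at the same depth, where a missing UMI does not show absence. At 2000 UMIs, 40.4% of adult esophageal squamous cells had a UMI of both *Fos* and HSP70, 4.81% of *Fos* alone, 39.9% of HSP70 alone and 14.9% of neither. In E15 esophageal squamous cells the shares were 27.4%, 37.1%, 4.84% and 30.6%. In pup esophageal stroma, 65.5% of cells had both.

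Across cells, Spearman's rho between the immediate early sum and the HSP70 sum as shares of a cell's UMIs was 0.20 to 0.32 in the 3 E15 pools and 0.29 to 0.37 in the 3 E19 pools. In the pups it was 0.62 in the esophagus, 0.41 in the GE-SCJ and 0.30 in the stomach, and in the adults 0.65 in the esophagus and 0.19 in the GE-SCJ, so no common direction across birth was seen. Among squamous cells it was 0.23 to 0.45 in the 4 prenatal groups, 0.86 in 56 cells of the pup esophagus, 0.24 in 44 of the pup GE-SCJ, 0.72 in 232 of the adult esophagus and 0.64 in 86 of the adult GE-SCJ. *Fos* and *Jun* had rho of 0.52 to 0.81 over the pools. These cells share a library and their UMI total enters both shares, so the values are a description.

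Adult levels of the GE-SCJ rest partly on cells with prenatal neighbours. The 25 such cells had an immediate early sum of 6640 CPM and an HSP70 sum of 204 CPM, and without them the pool was at 2948 CPM in place of 3794 CPM and at 1646 CPM in place of 1316 CPM. Its 86 squamous cells were hardly touched, at 1838 CPM of HSP70 with 3 cells left out in place of 1757 CPM.

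Other genes of the immediate early response were read from a list of 28. In the pup against the E19 esophagus, over all classes, 26 had enough UMIs, 23 were at least 2-fold higher and 0 lower, with a median log2 ratio of 1.75. Of all genes, 8.38% were higher and 10.3% lower. The largest ratios were those of *Klf2*, a flow-responsive factor (3.33, 428.7 against 42.7 CPM), *Ccn2*, a matricellular target of stretch signals (2.78), *Ier3* (2.61) and *Dusp1*, a phosphatase that turns off MAP kinases (2.50). In stroma, pup over E19 gave 23 of 24 higher in the esophagus (8.25% of all genes) and 15 of 25 higher in the stomach (6.76%). In the GE-SCJ, 12 of 25 were higher (6.81%) and 1 lower (10.6%). In columnar cells of the stomach 2 of 25 were higher (5.48%) and 1 lower (9.84%), near the shares over all genes.

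The other chaperones differed from one comparison to the next. Of 14 other chaperones and heat shock factors, 0 were called for pup over E19 esophagus, against 8.38% of all genes higher and 10.3% lower. In the pup esophagus against the E15 stomach, 2 were at least 2-fold higher and 2 lower, against 9.15% and 19.3% of all genes. The median log2 ratio was -0.15 against -0.37 for all genes. These counts are near the shares over all genes, and no result about chaperones is read from them. For pup over E19, 0 were higher and 3 lower in the GE-SCJ (6.27% and 19.2% of all genes), median -0.75 against -0.32. In the stomach 0 were higher and 5 lower (5.86% and 21.3%), median -0.78 against -0.35. Within stroma 3 of 14 were higher in the esophagus (8.25%), 0 in the GE-SCJ (6.81%) and 1 in the stomach (6.76%). Lower were 0, 0 and 1. In columnar cells 3 of 13 were lower in the GE-SCJ (9.44%), with 1 higher, and 3 of 13 in the stomach (9.84%). Between the pups, over all classes, 6 were higher and 1 lower in the esophagus than in the stomach, against 16.2% and 11.9% of all genes. The median was 0.76 against 0.11 for all genes. Of the 10 main genes, 3, the heat shock genes, were at least 2-fold higher. The mix of classes enters these values. Within stroma 1 of 9 chaperones was higher (3.33% of all genes, median 0.12), within smooth muscle 1 of 8 (6.04%, 0.21) and within neural cells 2 of 6 (13.6%, 0.43), with 0 lower in each. No result about chaperones is read from such small counts. Against the pup GE-SCJ, over all classes, 4 were higher and 0 lower (13.8% and 9.56% of all genes), with a median of 0.74. Of the 10 main genes, 4 were higher. Within classes, 3 of 8 chaperones were higher in squamous cells (7.14% of all genes), 2 of 9 in stroma (3.07%), 0 of 10 in smooth muscle (4.96%) and 0 of 6 in immune cells (7%). In smooth muscle 1 was lower, against 13.7% of all genes. In squamous cells of the GE-SCJ, adult over pup, 4 of 10 with enough UMIs were higher (12.9% of all genes), with a median of 0.86. For the pup esophagus over the E15 stomach, *Hspb1*, a small heat shock protein, was at 859 against 106 CPM and *Cryab*, a related lens and muscle chaperone, at 68.2 against 23.4 CPM. *Hspd1* and *Hspe1*, the mitochondrial chaperonin and its partner, were at 145 against 504 CPM and at 380.1 against 761 CPM.

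Over the 55 groups, the genes outside the 10 most like the immediate early sum, by Pearson's r of log2(CPM + 10) among 9621 genes, were *Nr4a1* (0.88), *Socs3* (0.85), *Btg2* (0.85), *Zfp36* (0.79) and *Cxcl1* (0.77). Those most like the heat shock sum were *Dusp1* (0.77), *Cebpb* (0.75), *Lamp2* (0.73), *Mylip* (0.72) and *Sat1* (0.70). The ranks depended on the groups used. Over the 33 groups of at least 50 cells, *Socs3* ranked 3, *Nr4a1* 8, *Btg2* 20, *Zfp36* 26 and *Cxcl1* 35 for the immediate early sum. For the heat shock sum *Sat1* ranked 1, *Dusp1* 2, *Mylip* 3, *Cebpb* 6 and *Lamp2* 7. The sums themselves had an r of 0.585 and a Spearman rho of 0.578. Groups share pools and classes, and r carries no test.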

How the data were processed

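Cells were dissociated with collagenase II (0.5 mg/ml, 45 min at 37 °C) and then, by the methods of the study, in TrypLE Express at 37 °C. They were passed through a 40 µm strainer, tagged by pool and captured as 1 multiplexed 10x 3′ library. The labels give a single extraction protocol for every region and stage, and 6 (E15), 2 (E19), 2 (pup) and 3 (adult) mice, while the methods state 3 mice, so the number behind a pool is uncertain. The authors aligned reads to the 10x mm10 (GRCm38) reference with Cell Ranger 6.1.1, removed cells by gene number, UMIs and mitochondrial share, and deposited whole-number UMI counts per gene and cell, with a mitochondrial percent and a cluster label for each cell. All 7808 deposited cells (107865155 UMIs, 2302227 to 20070615 per pool) and 19550 genes were used.

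From these counts, CPM, log2 ratios with 1 UMI added, exact Poisson and Clopper-Pearson intervals (95%), thinned shares, principal components (30, over 2000 variable genes, 15 neighbours) and keratin bins were computed with scipy 1.17.1, scikit-learn 1.9.0, numpy 2.4.6 and pandas 2.3.3 under Python 3.11.15, and figures drawn with matplotlib 3.10.9. The ratio step was tested on simulated data. With 1 pooled sample a group, no test was run. The 10 genes, the further lists of 28 immediate early and 14 chaperone genes, and the comparisons were chosen with earlier results of these data known. Named genes outside the 10 are the 4 of each list with the largest absolute log2 ratio between the highest and lowest pool of the sum it extends, and the 5 with the highest r to each sum. Promoter windows came from RefSeq. Alternatives changed the averaging, cell filter, library size, depth and the genes summed.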

Additional observations from a re-analysis of the deposited data

Results flagged for a closer look

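*Atf3* differed between pup and E19 GE-SCJ in opposite directions in 2 classes of the same pools. Its log2 ratio of pup over E19 was 2.39 in stroma, where the level was 483 against 92.7 CPM, and -1.78 in columnar cells, where it was 247 against 852 CPM. In squamous cells of these pools *Atf3* was also lower in the pup, at 229 against 876 CPM. The sum of the 7 immediate early genes also ran in opposite directions, being higher in pup stroma and at a log2 ratio of -1.03 in columnar cells. Of the 7 genes, 4 were at least 2-fold higher in stroma (6.81% of all genes) and 3 lower in columnar cells (9.44%). *Fosb* was lower in the pup in both stroma and columnar cells. This difference between classes was not tested, since each pool is 1 sample.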

How the results depend on the processing

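The directions of the sums between the highest and lowest pools and classes held under every alternative run. For the immediate early sum of pup over E19 esophagus, the log2 ratio of 1.49 was 1.79 as a mean of the CPM of each cell, 1.45 with a library size that omits hemoglobin, ribosomal protein and mitochondrial genes, 1.58 after dropping the top 1% of cells by UMIs of the sum, 1.68 without cells with neighbours from the other side of birth and 1.83 with cells thinned to 2000 UMIs. It was 1.38, 1.43, 1.74, 1.46 and 1.52 without *Fos*, *Jun*, *Egr1*, *Atf3* and *Ier2*. An unweighted mean over stroma and smooth muscle of the 9 prenatal and pup pools, chosen after seeing the data, gave 2.13, but put the pup esophagus (9342 CPM) below the pup GE-SCJ (12572 CPM) and stomach (12122 CPM), so the highest pool changed. In stroma alone the pup esophagus stayed the highest of the pups. The planned mean over classes with 20 cells in every pool gave no value, since no class has them in all 11. For immune cells over the second squamous label (2.41), the same settings gave 2.61, 2.73, 2.52, 2.58 and 2.58, and leaving out *Fos*, *Jun*, *Junb* and *Egr1* gave 2.51, 2.29, 2.82 and 2.18. For the heat shock sum of pup esophagus over E15 stomach (3.39), the mean over cells gave 3.48, leaving out cells with neighbours across birth 3.57, thinning 3.63, and leaving out *Hspa1a*, *Hspa1b* and *Dnajb1* 3.05, 2.93 and 4.11. Between classes (2.80) the library size gave 3.14, thinning 2.47, and the same genes left out 2.26, 2.53 and 3.74. The causes were not tested.

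Of 180 log2 ratios between pools, 15 changed sign as a mean over cells, which weights shallow and deep cells alike. For pup over E19 GE-SCJ these were *Fos* (0.34), *Jun* (0.35), *Junb* (0.64), *Atf3* (0.14) and *Ier2* (0.39), and for pup over E19 stomach *Egr1* (0.37), *Hspa1a* (0.83) and *Hspa1b* (0.90). The others were *Hspa1a* for adult over pup esophagus (0.027), *Atf3* for adult over pup GE-SCJ (-0.14), *Junb* (-0.076) and *Egr1* (-0.11) for E15 esophagus over stomach, *Fos* (0.040) and *Jun* (0.12) for pup GE-SCJ over stomach, and *Dnajb1* for adult esophagus over GE-SCJ (0.10). *Hspa1b* for that last pair was -0.055 without cells with neighbours across birth. The stromal counts of 9, 6 and 7 genes stayed at 9, 6, and 7 or 8. No paired analysis was possible because each group is 1 pooled sample and no test was run. Shares of positive cells depend on depth, and all 110 moved on thinning.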
